A study of Mus musculus with 16 samples.

Results

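Hedgehog signaling is a pathway in which a secreted ligand is read through the primary cilium. *Shh* encodes the ligand Sonic hedgehog. Its receptor, encoded by *Ptch1*, keeps the membrane protein Smoothened (*Smo*) off until the ligand binds. *Boc* encodes a coreceptor that presents the ligand, and *Hhip* a membrane protein that captures it. Downstream, SUFU (*Sufu*) holds back the GLI transcription factors. GLI2 (*Gli2*) and GLI3 (*Gli3*) are the factors that receive the signal, GLI3 largely as a repressor, whereas *Gli1*, *Ptch1* and *Hhip* are themselves target genes of the pathway in many tissues. In the developing lung the ligand comes from the epithelium and the response is mostly in the mesenchyme, and Hedgehog signaling has also been studied in small cell lung cancer (SCLC).

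These 9 genes were described from ATAC-seq, an assay in which the Tn5 transposase cuts open chromatin, of SCLC cells from *TKO*;*Hes1*GFP/+ mice. In all animals *Rb*, *p53* and *p130* were deleted in the lungs by intratracheal adenovirus carrying Cre under the CMV promoter, which is active in many cell types, and one *Hes1* allele carried the GFP reporter. GFPhigh (non-neuroendocrine, non-NE) and GFPneg (neuroendocrine, NE) cells were sorted from the pooled tumors of each mouse. There were 4 pairs of both populations from 3 mice, 1 of which gave 2 pairs, and each of the 8 libraries was run on 2 lanes, giving 8 runs per group. The mice had tumors induced as adults; their ages at collection are not in the labels.

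The data were 2 lists of peaks that the study had called different between the groups: 40828 opened peaks, more accessible in GFPhigh than in GFPneg cells, and 39539 closed peaks, less accessible. The members were all listed peaks whose centre had the start site of 1 of the 9 genes as its nearest protein-coding start site. They were 112 of the 80367 listed peaks, 68 opened and 44 closed. The only level used was the mean normalized count of a peak over all libraries of both groups, which is the authors' mean. Whether the 2 lanes of a library were summed before it was taken is not given in the sources used here. It has no SD or n, does not say how high a peak was in either group, and grows with peak width, so single peaks of different genes were ranked per 100 bp of peak. The depth per library is not known from these values. No comparison between the groups could be refitted, so no p-value is given, and a gene whose sites did not pass the study's limits leaves no trace in the lists. Nearest start sites are a convention: a listed peak was not shown to act on the gene it was assigned to.

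The opened share of the Hedgehog peaks was 60.7% (95% Wilson interval 51.5 to 69.3%), against 50.8% of all listed peaks. The genes fell on both sides of this value. *Gli2* and *Gli3* together had 13 opened peaks of 38 (34.2%, interval 21.2 to 50.1%), whereas the other 7 genes had 55 of 74 (74.3%, interval 63.3 to 82.9%). This division of the genes was made after their counts were seen, and 3 genes cross 50% under other settings, while *Smo*, at 50%, ranges from 33.3 to 100%. With start sites of any biotype *Gli2* kept 3 peaks, 66.7% of them opened, and *Hhip* 4, 25.0% of them opened, and *Hhip* was also at 25.0% (4 peaks) in the gene body with 10 kb around it and at 33.3% (6 peaks) within 100 kb of its start. *Gli3* went from 42.1 to 57.1% opened (7 peaks) at a mean count of at least 50. The intervals cover counting error only, and neighbouring peaks are not independent.

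**Figure D1:**
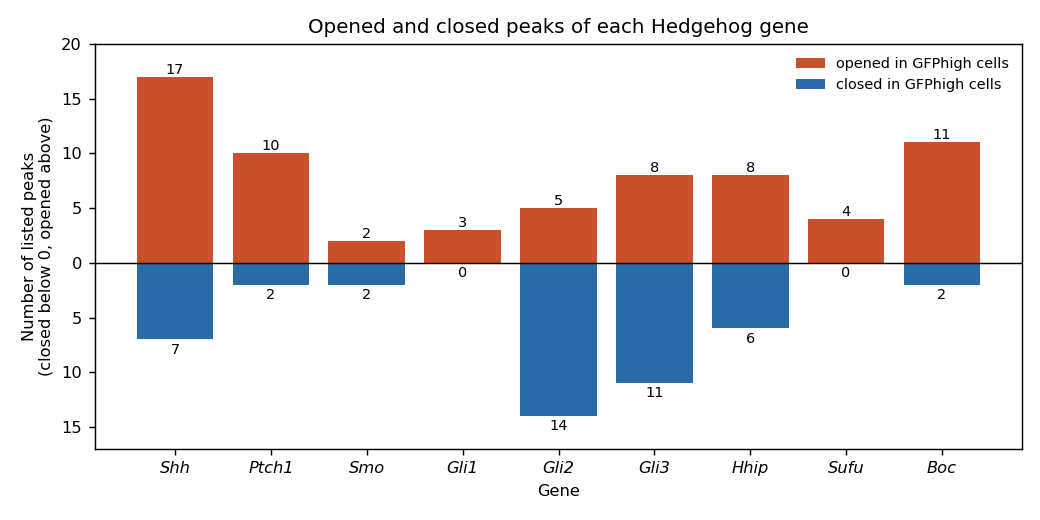
Number of listed peaks (vertical axis) of each Hedgehog gene (horizontal axis), with peaks opened in GFPhigh cells above 0 and closed peaks below. Closed peaks outnumber opened ones at *Gli2* (14 to 5) and *Gli3* (11 to 8), are as many at *Smo* (2 to 2), and are fewer at the other 6 genes.

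Peaks near start sites also divided the genes. An opened peak within 1 kb of an own start site was present at 5 of the 9 genes (*Boc*, *Gli1*, *Ptch1*, *Smo* and *Sufu*), against 26.6% of 21924 protein-coding genes. A closed one was present only at *Hhip*, against 8.43% of genes. *Shh*, *Gli2* and *Gli3* had no listed promoter peak at this distance. With 3 kb in place of 1 kb, a distance tried for these counts after the data were seen, 7 genes had an opened one, *Shh* and *Gli2* added (30.3% of protein-coding genes), and *Hhip* alone a closed one (12.8%). No gene had both kinds. Over all their peaks, *Gli1* and *Sufu* had opened peaks only (24.5% of protein-coding genes did), no member had closed peaks only (14.4% did), 7 members had both kinds (27.6% did), and no member was without a listed peak (33.5% were). The loci held many peaks: 6 of the 9 genes had at least 10, which was the case for 10.7% of protein-coding genes. This count rests on the assignment: no member had 10 when start sites of genes of any biotype competed for the peaks, and only *Gli3* (15) and *Sufu* (13) did in the gene body with 10 kb around it. Under that last setting 92.3% of the *Sufu* peaks were opened, so it no longer had opened peaks only.

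Sequences of some of the member peaks are shown first. All are the plus strand of mm10, in lower case, with the named motif string in capitals on whichever strand it was found and other strings left in lower case. The first set is from *Ptch1*, the receptor gene. Its upstream promoter peak (chr13:63566258-63566497) is shown whole and holds the GLI string GACCACCCA. The second *Ptch1* sequence is the GLI string on the other strand with its flanks (chr13:63573456-63573482), from the opened peak 7.82 kb upstream of the starts in the basic annotation, where the full annotation has further *Ptch1* starts. The third is the central 200 bp of the opened peak with the highest level of all members (chr13:63567937-63568136), with a TEAD string.
Ptch1 upstream promoter peak: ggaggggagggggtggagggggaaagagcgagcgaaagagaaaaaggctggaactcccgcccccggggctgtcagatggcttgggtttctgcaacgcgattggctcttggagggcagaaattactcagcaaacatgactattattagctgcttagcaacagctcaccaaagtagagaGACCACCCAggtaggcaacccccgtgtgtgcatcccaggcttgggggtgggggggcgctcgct
Ptch1 GLI string at the alternative start: ccctcggcgTGGGTGGTCtgccgcgcc
Ptch1 strongest peak, TEAD: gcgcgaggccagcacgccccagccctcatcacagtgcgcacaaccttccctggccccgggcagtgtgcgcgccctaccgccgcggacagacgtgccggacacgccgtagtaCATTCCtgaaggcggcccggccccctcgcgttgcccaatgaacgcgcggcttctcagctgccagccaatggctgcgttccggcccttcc

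The next pair shows the promoters that were listed in opposite directions at target genes of the pathway. The *Gli1* promoter peak (chr10:127342389-127342560) was opened and the *Hhip* promoter peak was closed, and of the latter the part upstream of the start site is shown (chr8:80058007-80058183). Neither holds a GLI string, and no letters are in capitals.
Gli1 promoter, opened: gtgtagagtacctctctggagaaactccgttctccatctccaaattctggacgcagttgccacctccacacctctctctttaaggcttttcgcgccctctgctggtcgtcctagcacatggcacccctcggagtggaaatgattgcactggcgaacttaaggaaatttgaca
Hhip promoter, closed: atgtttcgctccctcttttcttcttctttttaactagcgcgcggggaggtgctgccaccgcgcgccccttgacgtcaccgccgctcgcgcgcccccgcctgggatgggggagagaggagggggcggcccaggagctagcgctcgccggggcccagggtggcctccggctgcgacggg

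The AP-1 string TGANTCA was the most frequent of the strings given here in closed Hedgehog peaks (22.7%), as it was in all closed peaks (26.4%). Closed peaks with this string are shown for the 2 genes with mostly closed peaks. Shown is the central 200 bp of the peak with the highest mean count among those that hold it there (chr1:119227443-119227642 for *Gli2* and chr13:15537764-15537963 for *Gli3*).
Gli2 closed, AP-1: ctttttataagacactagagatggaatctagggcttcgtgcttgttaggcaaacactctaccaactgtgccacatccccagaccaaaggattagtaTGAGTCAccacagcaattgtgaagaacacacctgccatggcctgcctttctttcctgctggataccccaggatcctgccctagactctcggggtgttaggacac
Gli3 closed, AP-1: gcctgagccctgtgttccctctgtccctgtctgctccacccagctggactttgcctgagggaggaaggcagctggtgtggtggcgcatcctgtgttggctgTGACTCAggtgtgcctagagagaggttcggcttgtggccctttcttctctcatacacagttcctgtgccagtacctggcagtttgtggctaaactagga

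Opened peaks with the TEAD string CATTCC or its reverse complement GGAATG are shown in the same way, for strings in the central 200 bp, for *Gli3* (chr13:15624661-15624860) and *Shh* (chr5:28563555-28563754).
Gli3 opened, TEAD: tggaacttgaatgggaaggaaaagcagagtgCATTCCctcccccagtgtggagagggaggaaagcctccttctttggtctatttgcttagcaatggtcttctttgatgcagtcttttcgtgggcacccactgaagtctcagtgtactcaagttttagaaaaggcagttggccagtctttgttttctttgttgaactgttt
Shh opened, TEAD: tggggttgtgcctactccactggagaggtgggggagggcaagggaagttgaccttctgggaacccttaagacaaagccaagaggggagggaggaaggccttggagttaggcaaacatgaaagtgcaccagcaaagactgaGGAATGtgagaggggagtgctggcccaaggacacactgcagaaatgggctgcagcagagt

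*Shh* (chr5:28456815-28467256, minus strand), the ligand gene, had the most listed peaks, 24, of which 17 were opened and 7 closed (70.8% opened, interval 50.8 to 85.1%). No listed peak lay within 1 kb of its start site. The nearest were opened peaks in an intron 2.59 kb downstream of the start, with a mean count of 17.2, and 2.72 kb upstream, with a mean count of 39.8. All 3 peaks inside the gene were opened, and both peaks downstream of it, which lie in the neighbouring gene *Rbm33*, were opened. The 3 inside the gene lie nearer to the start of a noncoding transcript, *9530036O11Rik* or *Gm26894*, than to that of *Shh*. With start sites of any biotype *Shh* kept 7 peaks, 71.4% of them opened. All 7 closed peaks lay among the 19 upstream peaks.

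Within 100 kb of the *Shh* start, 12 peaks were opened and 3 closed, and beyond it 5 were opened and 4 closed. The opened peak with the highest mean count (171.7, or 28.3 per 100 bp) was 34.0 kb upstream (chr5:28500928-28501533). A closed peak with a mean count of 40.4 (chr5:28501784-28502095) began only 250 bp beyond its end. The highest closed peak (chr5:28530557-28531032), with a mean count of 97.8, was 63.5 kb upstream. In the order of position, the 24 peaks formed 10 runs of peaks of 1 kind. All the upstream peaks lie in introns of *9530036O11Rik*, an antisense transcript that runs over the region. In the limb, *Shh* is known to be driven by an enhancer inside the distant gene *Lmbr1*. From the last *Shh* peak to the end of *Lmbr1* there were 15 more listed peaks, 7 opened and 8 closed, which by the nearest start site belong to *Rnf32* (14) and *Lmbr1* (1) and are not members. All 4 peaks in *Lmbr1* introns were closed, with mean counts from 11.8 to 56.4. This stretch was added after the values were seen.

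**Figure D2:**
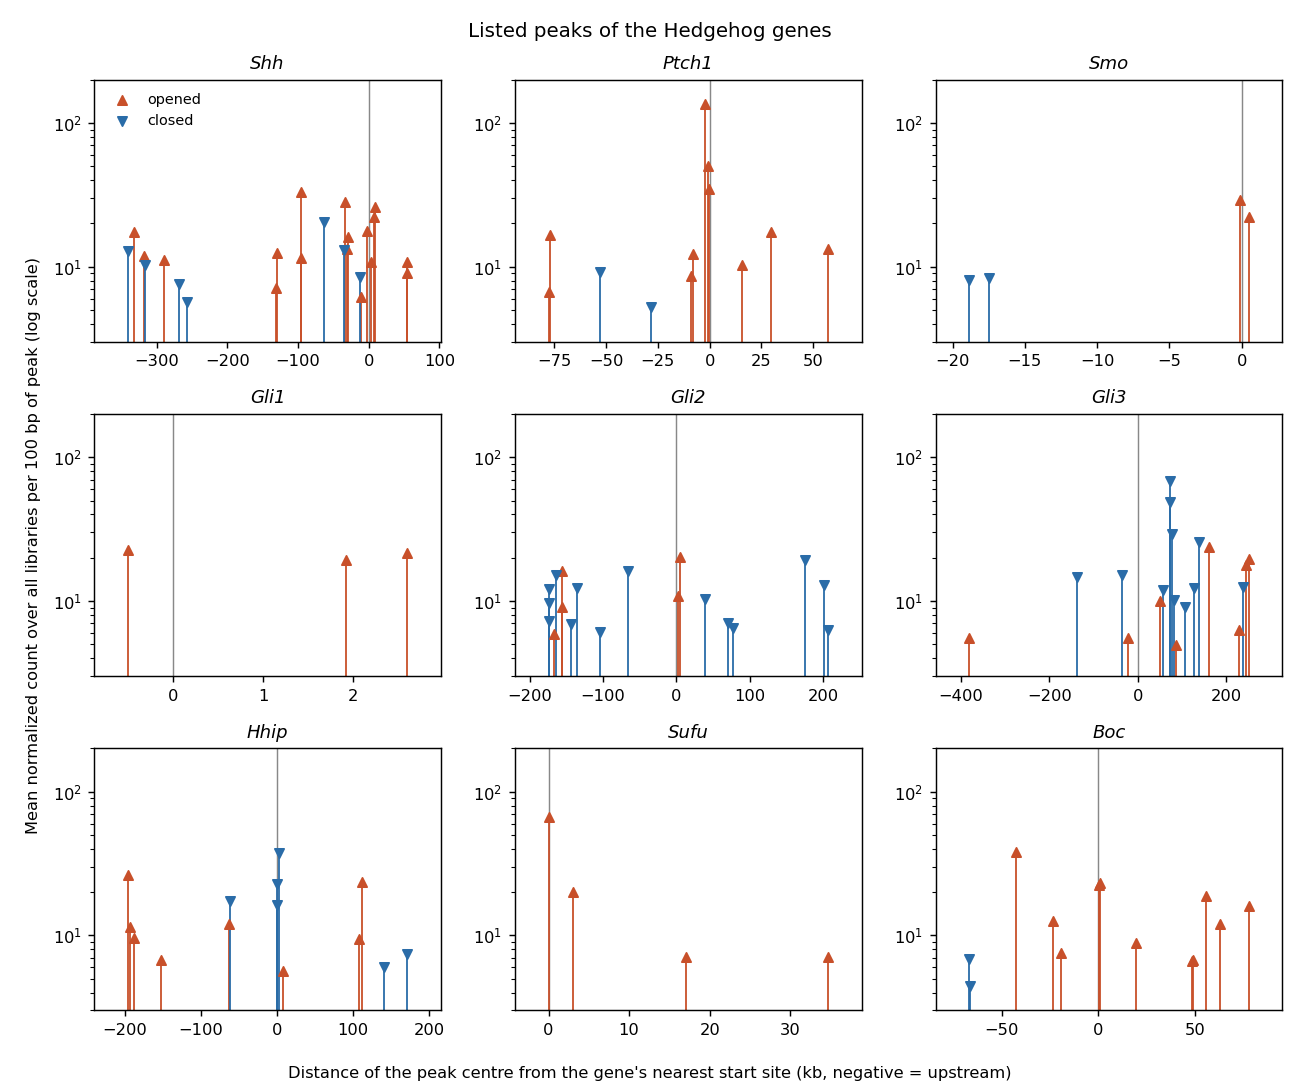
Mean normalized count per 100 bp of peak (vertical axis, log scale) against the distance of the peak centre from the nearest start site of its own gene (horizontal axis, kb, on a scale of its own in each panel) for the 112 peaks. Upward triangles are opened and downward triangles closed peaks. The opened *Ptch1* peak at 2301 bp upstream stands highest, at 134.6 per 100 bp, and the closed *Gli3* peak in an intron follows with 68.7.

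*Ptch1* (chr13:63508328-63573598, minus strand), the receptor gene, had 12 listed peaks, 10 opened and 2 closed (83.3% opened, interval 55.2 to 95.3%). The printed span reaches to a start of the full annotation at 63573598, so some peaks called upstream of the starts in the basic annotation lie inside it. Both peaks within 1 kb of a start site in the basic annotation were opened. One (chr13:63564785-63565188, mean count 139.8) lies between the 2 annotated starts, 451 bp upstream of the nearer, and the other (chr13:63566258-63566497, mean count 120.1) lies 642 bp upstream of the farther. The peak 2301 bp upstream (chr13:63567761-63568312) had a mean count of 742.9, or 134.6 per 100 bp, the highest of the 112 peaks per 100 bp. Its centre lies 18 bp into *A930032L01Rik*, a transcript of unsettled status in the annotation, so by distance to any start site it would belong to that transcript and not to *Ptch1*. All 8 peaks from 57.2 kb downstream to 9.06 kb upstream of the starts were opened. The 2 closed peaks were 28.1 kb (mean count 5.87) and 53.1 kb upstream (chr13:63618666-63619051, mean count 35.6), and 2 more opened peaks lay beyond them.

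The 2 GLI strings among the members were both in opened *Ptch1* peaks. One starts at base 178 of the 240 bp promoter peak shown first among the sequences. The other starts at chr13:63573465, in the peak chr13:63573362-63573747 (mean count 47.6). The basic annotation has nothing there, but the full annotation starts 2 further *Ptch1* transcripts inside this peak. They are a protein-coding one at 63573598 and one of the nonsense-mediated decay class at 63573460, and the string lies between these 2 starts. Of the 10 opened *Ptch1* peaks, 6 held a TEAD string in the central 200 bp, including the strongest one. The share over all opened peaks was 18.1%, and this gene was picked after the counts were seen. The string was in 3 of 17 opened peaks at *Shh*, 2 of 11 at *Boc*, 3 of 8 at *Gli3* and 2 of 8 at *Hhip*. It was in 1 of 5 at *Gli2*, in 1 of 2 at *Smo*, and in none at *Gli1* and *Sufu*.

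*Smo* (chr6:29735503-29761365, plus strand), which encodes the signal transducer in the membrane, had 4 listed peaks. The 2 opened peaks lie 90 bp upstream (chr6:29735303-29735905, mean count 175.5) and 495 bp downstream of the start, in coding sequence (chr6:29735952-29736427, mean count 105.2). The 2 closed peaks lie in *Tspan33*, 18.8 kb (chr6:29716761-29716937) and 17.5 kb upstream, with mean counts of 14.4 and 7.02. Both listed promoter peaks were thus opened, and both closed peaks were distal and low.

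*Boc* (chr16:44485049-44558897, minus strand), the coreceptor gene, had 13 listed peaks, 11 opened and 2 closed (84.6% opened, interval 57.8 to 95.7%). The 7 peaks inside the gene were all opened, and 2 of them were promoter peaks, one in an untranslated part of an exon (chr16:44558221-44558981, mean count 169.4) and one in an intron (chr16:44557795-44558144, mean count 80.5), where the microRNA gene *Mir3081* has the nearer start. The highest was an intergenic peak 42.6 kb upstream (chr16:44600966-44601948), with a mean count of 374.2 over 983 bp, or 38.1 per 100 bp. The 11 opened peaks formed 1 unbroken run. The 2 closed peaks were the farthest upstream, at 66.5 and 66.7 kb, and the higher of them (chr16:44625541-44625681) had a mean count of 9.60.

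*Hhip* (chr8:79965851-80058006, minus strand), which encodes the membrane protein that captures the ligand, was the only member with a closed promoter. One promoter peak spans the start site (chr8:80057868-80058183, mean count 71.9) and the other lies 432 bp downstream of it in an untranslated part of an exon (chr8:80057499-80057649, mean count 24.7). The closed peak with the highest mean count of this gene (117.7, or 37.6 per 100 bp) lies in an intron 3.62 kb from the start (chr8:80054232-80054544). Of its 14 listed peaks 8 were opened and 6 closed (57.1% opened, interval 32.6 to 78.6%), and their place differed. Within 100 kb of the start 2 were opened and 4 closed, and beyond it 6 were opened and 2 closed. The highest opened peak (chr8:79945551-79946067, mean count 121.0) was 112.2 kb downstream of the start, beyond the end of the gene. The opened peaks within 100 kb were a small intronic one with a mean count of 4.09 and one 62.6 kb upstream (mean count 59.8) that lies next to a closed peak (mean count 74.4) 61.6 kb upstream.

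*Sufu* (chr19:46396896-46488804, plus strand), the gene of the GLI inhibitor, had 4 listed peaks, all opened and all inside the gene. Counted over the gene body with 10 kb around it, whatever the nearest start, there were 13 peaks, 92.3% of them opened. The promoter peak (chr19:46396686-46397168) had a mean count of 324.2, or 67.1 per 100 bp, the third highest of the 112 per 100 bp. The other 3 lie in introns 3.07, 17.1 and 34.7 kb from the start, with mean counts of 38.9, 18.7 and 11.5. With 4 peaks the interval of the opened share is wide (51.0 to 100%), and chromosome 19 as a whole had 60.3% opened peaks.

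*Gli1* (chr10:127329882-127341974, minus strand), the GLI activator gene that is itself a pathway target, had 3 listed peaks, all opened and of nearly equal mean counts. The promoter peak (chr10:127342389-127342560, mean count 39.2) lies 500 bp upstream of the start, and the intronic peaks (mean counts 49.1 for chr10:127339262-127339489, the highest, and 37.7) lie 2.60 and 1.92 kb downstream of it. All 3 also lie in an intron of the antisense transcript *Gm47200*. The interval of the opened share is 43.9 to 100%.

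*Gli2* (chr1:118834132-119053619, minus strand) had 19 listed peaks, 5 opened and 14 closed (26.3% opened, interval 11.8 to 48.8%). None lay within 1 kb of the start site. The 2 opened peaks of the gene itself were the 2 nearest to the start, 1.94 kb (mean count 40.2) and 5.47 kb (chr1:119047971-119048334, mean count 73.7) into the gene, in introns. All 6 other intragenic peaks, from 38.4 to 206.8 kb into the gene, were closed, and the highest of them (chr1:118878160-118878591, mean count 83.4) was 175.2 kb from the start. Upstream, 8 peaks were closed and 3 opened. One closed upstream peak, 103.7 kb away, lies 269 bp from the start of *Gm8321*.

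*Gli3* (chr13:15463235-15730026, plus strand) had 19 listed peaks, 8 opened and 11 closed (42.1% opened, interval 23.1 to 63.7%), and again none at the promoter. The 2 closed peaks with the highest mean counts are neighbours in an intron 73.4 and 73.9 kb from the start. The higher (chr13:15537207-15537599) had a mean count of 270.2, or 68.7 per 100 bp, the second highest of the members on this scale. Its neighbour (chr13:15537707-15538019) had 153.7 and holds the AP-1 string shown among the sequences. The stretch from 56.2 to 139.5 kb held 8 closed and 1 opened peak. Of the 6 opened peaks inside *Gli3*, 4 lay farther into the gene. The highest of them (chr13:15624399-15625122, mean count 171.8) was 160.8 kb from the start, and one in coding sequence (mean count 131.9) was 251.1 kb from it. Inside the gene 9 peaks were closed.

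The Hedgehog peaks were farther from start sites than the average listed peak. The median distance was 45.7 kb for opened peaks (17.5 kb over all opened peaks) and 79.9 kb for closed peaks (42.4 kb over all). Of the 40 Hedgehog peaks beyond 100 kb, 19 were opened (47.5%, against 32.5% of all listed peaks beyond 100 kb), and of the 72 within it, 49 (68.1%, against 55.7%). By the place of the centre relative to any start site, 14 of the 112 were promoter peaks (12.5%, against 16.1% of all listed peaks), 61 lay in introns (54.5%, against 46.8%), 34 were intergenic (30.4%, against 33.6%) and 3 lay in exons (2.68%, against 3.54%). Of the 14, 10 were at a promoter of the member gene itself. There were 4.71 listed peaks per 100 kb of the stretches assigned to the 9 genes, against 2.95 per 100 kb of the genome.

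The median mean count, not corrected for width, was 46.7 for opened Hedgehog peaks (40.7 for all opened peaks) and 28.4 for closed ones (25.8 for all closed peaks). Per 100 bp it was 12.5 (14.4 for all) and 11.1 (10.8 for all). The median of the opened Hedgehog peaks thus lay above that of all opened peaks on the first scale and below it on the second. On the first scale their lower and upper quartiles (17.6 and 81.3) were both below those of all opened peaks (18.5 and 102.1). Median widths were 316 bp (300 for all) and 268 bp (248 for all). The median GC content was 51.1% in opened (51.1% for all) and 50.6% in closed Hedgehog peaks (48.9% for all). Of 103 pairs of neighbouring peaks of 1 gene, 73 were of the same kind (70.9%, against 74.8% over all genes).

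Motif strings were searched without mismatches on both strands of the 200 bp around the peak centre, which reach past the ends of narrower peaks. The GLI string was found in 2 of the 68 opened Hedgehog peaks (2.94%) and in none of the 44 closed ones (0%, interval up to 8.03%), against 39 of 40828 opened peaks (0.0955%) and 30 of 39539 closed peaks (0.0759%). With a count of 2, both in 1 gene, nothing follows for the other members, and a missing string says only that these letters are not in the window.

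The TEAD string was in 18 of 68 opened Hedgehog peaks (26.5%, interval 17.4 to 38.0%, against 18.1% of all opened peaks) and in 4 of 44 closed ones (9.09%, against 8.77%). The NFI half-site TTGGCA was in 19 opened peaks (27.9%, interval 18.7 to 39.6%, against 18.0%) and in 7 closed ones (15.9%, against 13.5%). The interval of the opened peaks with an NFI half-site does not hold the share over all opened peaks, and the intervals of the other strings given here do, GLI in opened peaks apart. *Boc* had 7 of the 19 opened peaks with this string. Including 1 string that is not reported here, 8 strings were searched in both lists, so 16 intervals were looked at, and peaks are not replicates. The AP-1 string TGANTCA was in 7 opened (10.3%, against 10.6%) and 10 closed peaks (22.7%, against 26.4%; 4 at *Gli3* and 3 each at *Gli2* and *Shh*), the FOX string TGTTTAC in 4 (5.88%, against 6.84%) and 5 (11.4%, against 9.70%), the NKX2 string CACTTGA in 6 (8.82%, against 6.67%) and 4 (9.09%, against 5.03%), and the RBPJ string TGGGAA in 11 (16.2%, against 20.6%) and 7 (15.9%, against 16.3%). None of these strings contains another. A match is a run of letters and not a bound site.

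**Figure D3:**
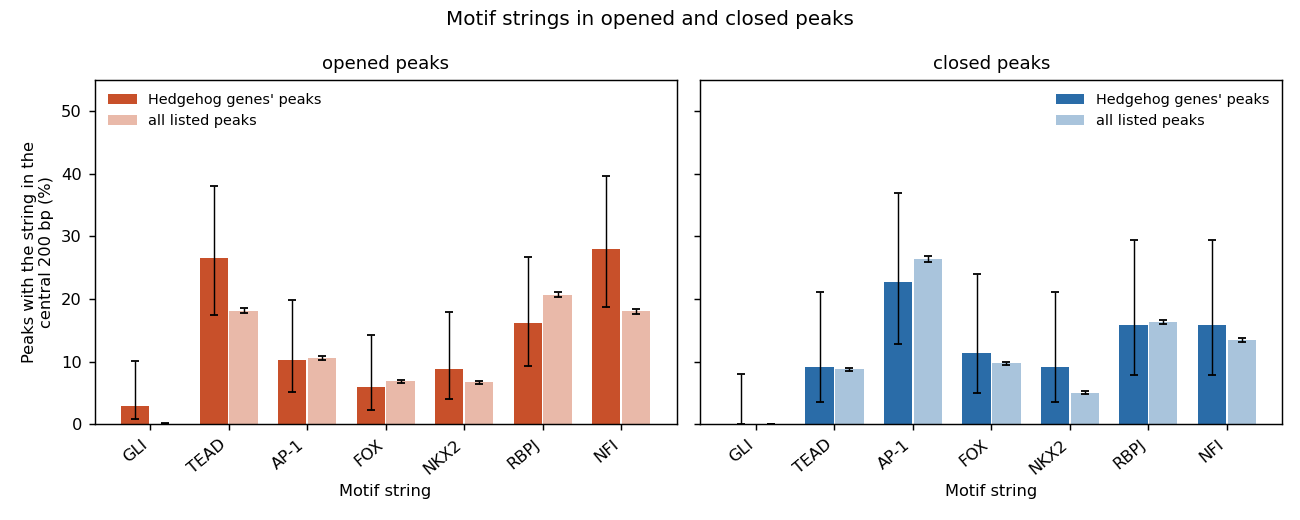
Share of peaks with each motif string in the central 200 bp (vertical axis, %) for opened peaks (left) and closed peaks (right), with dark bars for the Hedgehog peaks and pale bars for all listed peaks of the same kind. Error bars are 95% Wilson intervals. Among the Hedgehog peaks, the NFI (27.9%) and TEAD (26.5%) strings stand highest in the opened peaks and AP-1 (22.7%) in the closed ones.

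The protein-coding genes with the counts most like those of a member were found by the sum of the absolute differences in opened and closed peaks, over the pair of counts only. For *Shh* they were *Plxna4* and *Sorl1*, with the same 17 opened and 7 closed peaks, and *Cadm1*, 1 of 8 genes that differ by 1 peak. For *Ptch1* there were 18 genes with the same counts, the first in alphabetical order being *7530416G11Rik*, *Ackr3* and *Atoh8*. For *Gli2* there were 4, among them *Agpat4*, *Nfatc1* and *Runx2*. For *Gli3* there were 3, *Abcc4*, *B3galnt1* and *Plekhg1*. For *Hhip* there were 10, among them *Cacna1b*, *Chga* and *Clmn*, and for *Boc* 10, among them *Clic4*, *Commd8* and *Cpne8*.

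The other genes of the pathway, on lists of 42 genes without the 9 members, had 266 listed peaks, 144 opened and 122 closed. The opened share was 54.1%, against 50.8% of all listed peaks. Of the 42 genes 15 had opened peaks only (24.5% of all protein-coding genes did), 2 closed only (14.4%), 22 both (27.6%) and 3 none (33.5%). An opened promoter peak was present at 15 of the 42 (26.6% of all protein-coding genes) and a closed one at 5 (8.43%). Among ligands and their release, *Ihh*, the gene of Indian hedgehog, had 5 opened and 3 closed peaks, *Dhh* none, *Hhat*, whose product attaches the fatty acid to the ligand, 2 and 3, *Disp1*, which releases the ligand, 9 and 2 with an opened promoter peak (mean count 61.8), and *Scube2*, which carries it, 4 and 4.

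Among receptors and coreceptors, *Cdon*, the relative of *Boc*, had 3 opened and 8 closed peaks, where *Boc* had 11 and 2. *Gas1*, another coreceptor gene, had 8 opened and 1 closed, and *Lrp2* 5 and 1 with an opened promoter peak (mean count 152.3).

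The transducer list had 31 opened and 36 closed peaks, 25 of them (2 opened, 23 closed) at *Dyrk2*, the gene of a kinase that acts on GLI2. Of its 15 genes 9 had opened peaks only, and 7 had an opened promoter peak: *Kif7*, whose product works at the tip of the cilium, *Evc*, *Evc2* and *Iqce*, whose products form a complex that holds Smoothened near the base of the cilium, the kinase genes *Ulk3* and *Grk2*, and *Spop*, an adaptor of GLI degradation, with 8 opened and no closed peaks. *Prkar1a*, a regulatory subunit of the kinase PKA, had the only closed promoter of the list, with 1 opened and 2 closed peaks. *Gsk3b*, another kinase gene that acts on GLI proteins, had 4 opened and 5 closed peaks.

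Of 6 genes of the primary cilium, *Kif3a*, *Ift172* and *Ift122*, which encode parts of the transport machinery, had opened peaks only and an opened promoter (mean counts 264.0, 299.4 and 759.8), and *Dync2h1*, the motor of the return transport, had closed peaks only, 3, with a closed promoter (381.5). *Ift88* and *Arl13b* had no listed peak. Among relatives of the GLI genes, *Glis2* had 4 opened and no closed peaks with an opened promoter (mean count 447.8), and *Glis3* 10 and 10. Among genes known as Hedgehog targets in other tissues, *Bmp4* had 15 opened and 1 closed peak, *Ccnd1* 9 and 3, *Osr1* 14 and 9, and *Bcl2* 8 and 9. *Mycn* had 6 opened and 19 closed peaks and *Igf2* 5 closed ones. The promoters of *Bmp4* and *Osr1* were opened, and those of *Bcl2*, *Mycn* and *Igf2* closed.

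**Figure D4:**
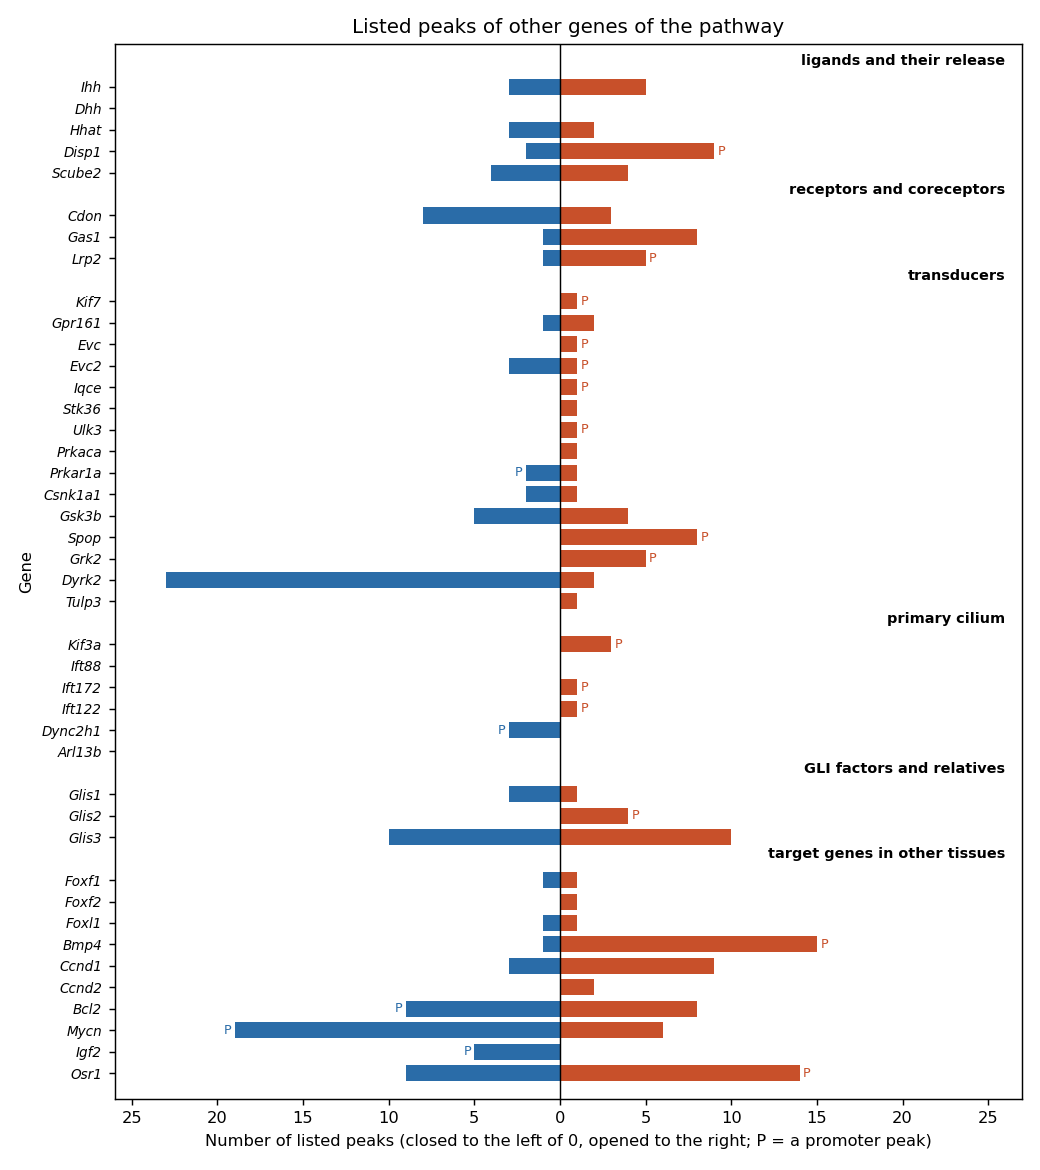
Number of listed peaks (horizontal axis) of the 42 other genes of the pathway (vertical axis), grouped by list, with closed peaks to the left of 0 and opened peaks to the right. P marks genes with a listed promoter peak of that kind. *Dyrk2* has the most closed peaks, 23, and *Bmp4* the most opened, 15.

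The labels of the sorted cells were checked by marker genes. For comparison, 50.8% of all listed peaks were opened. Of protein-coding genes, 26.6% had an opened promoter peak and 8.43% a closed one. The 9 NE markers had 11 opened peaks of 68 (16.2%), with a closed promoter peak at 7 of them. Of the 57 closed peaks 28 were at *Insm1*, *Chga* had 8 of the 11 opened peaks beside 6 closed ones, and *Syp* and *Dll3* had no listed peak. The 8 non-NE markers had 72 opened of 89 (80.9%), with an opened promoter peak at 6. Of these peaks 37 (26 opened) were at *Hes1*, whose GFP reporter defined the sort, so that they are no independent check. Markers of cells outside the tumor lineage were also in the lists, although the study's sort stained for CD45 and CD31: 9 leukocyte markers had 17 opened of 24 peaks (70.8%), 11 of them at *Ptprc*, the CD45 gene, 9 endothelial markers 21 of 84 (25.0%), and 12 fibroblast markers 24 of 42 (57.1%), with an opened promoter peak at *Cd68*, *Cd14*, *Kdr* and *Col1a1*, a closed one at *Tek*, *Erg* and *Col1a2*, and no listed peak at *Itgam*, *Adgre1*, *Col3a1*, *Pdgfrb*, *Lum* and *Tcf21*. The part of such cells in the opened and closed peaks of the Hedgehog genes was not tested.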

How the data were processed

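GFPhigh and GFPneg SCLC cells were profiled by ATAC-seq. According to the study's methods, reads were trimmed, aligned to mm10 with Bowtie2 (2.3.4.1) and freed of duplicates, narrow peaks were called with MACS2 with reads shifted and extended around the Tn5 cut, and the reads of every sample were counted in the merged peaks. The authors compared the groups with DESeq2 (1.28.1), and peaks past the study's limits on adjusted p and fold change were deposited as an opened and a closed list. As a signal for each peak, the deposited lists give 1 normalized count, averaged by the authors across the libraries (or lane runs) of both groups. The lists also hold the log2 fold change, its standard error, the Wald statistic and the p-values of the authors' comparison, which were neither used nor printed. Values per library were not analysed here, so the depth per library, replicate agreement and batches could not be examined, and each mean weights the lanes and mice as the authors did.

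Runs were grouped by the GFP status in their labels. Peaks were read as 1-based positions and assigned by their centre to the nearest protein-coding start site of the basic GENCODE annotation (release M21, GRCm38). A promoter peak lay within 1 kb of a start site, and exons, introns and intergenic sites followed in this order. Sequences came from the RefSeq copy of GRCm38.p6. The assignment and the motif search were tested on simulated data. Intervals are 95% Wilson intervals and cover counting error only. Python 3.11.15, numpy 2.4.6, pandas 2.3.3, scipy 1.17.1 and matplotlib 3.10.9 were used.

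The members and lists were chosen with earlier results of these data known. Named were all members, their promoter peaks, the opened and closed peak of the highest mean count per gene, other pathway genes with a promoter peak or at least 5 peaks, and up to 3 genes of like counts for members with at least 10 peaks. Other peaks and genes, such as those with motif strings, were named after their values were seen. Some genes of the lists and 1 motif string are not reported here.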

Additional observations from a re-analysis of the deposited data

How the results depend on the processing

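The number of Hedgehog peaks depended on how peaks were assigned. It was 112 as reported, 43 when start sites of genes of any biotype competed, 72 within 100 kb of the start site and 67 in the gene body with 10 kb around it. The opened share was 60.7% and lay between 57.6 and 73.8% over 16 alternatives, with 70.1% in the gene body with 10 kb around it and 73.8% at a mean count of at least 50, where 64.4% of all listed peaks were opened. Leaving out 1 gene at a time gave 57.6% (without *Boc*) to 67.7% (without *Gli2*). No interval was computed for these shares. The lower end of the reported interval, 51.5%, is already near the 50.8% of all listed peaks, so whether the difference holds without single genes was not tested. Of 62 alternatives for single genes, 13 left the interval of the reported share; *Gli2* went from 26.3 to 66.7% opened on the 3 peaks left with any biotype, and *Hhip* from 57.1 to 25.0% on 4 peaks, both there and in the gene body with 10 kb around it. The other alternatives that left it went to 100% opened, at *Shh*, *Ptch1*, *Smo* and *Boc*. *Smo* for 1 went from 50% to 100% on 3 peaks in the gene body with 10 kb around it. *Gli3* went from 42.1 to 57.1% on 7 peaks at a mean count of at least 50, which is inside its interval (23.1 to 63.7%). These settings leave fewer peaks, and the cause was otherwise not tested. The promoter share went from 12.5 to 18.8% with a promoter distance of 3 kb. The GLI share was 1.79% under all 3 searches, while the share over all listed peaks went from 0.0859% to 0.165% with the whole peak and 0.384% with the looser string. No paired analysis was possible because the lists hold no values per library. The mean count, the only level used here, does not give the level in either group, and the fold changes in the lists were not used. Peaks that did not pass the study's limits were not analysed here.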
